A study of Mus musculus with 132 samples.

Results

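Ube2l6 and 8 genes linked to interferon were measured by Smart-seq2 in single cells of mouse preimplantation embryos. The 9 genes, of 32245 in the count table, were taken by symbol, and all 9 were present. Ube2l6 was chosen by its measured counts, for its loss in 32-cell mimic cells, so its values at that stage are a description only. The others were Isg15, Usp18, Irf1, Irf7, Ifitm1, Ifitm2, Ifitm3 and Bst2. The loss was incomplete: 7 of 39 32-cell mimic cells had Ube2l6 counts, against 24 of 39 control cells.

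Embryos came from superovulated C57BL/6 x DBA F1 females mated with C57BL/6 x DBA F1 males (C57BL/6NCrl and DBA/2NHsd in the methods), and were cultured from the 2-cell stage. The medium held either a synthetic mimic of miR-381-3p (mirVana custom mimic) or a scrambled negative control mimic, at 5 or 10 µM. No label gives the dose of a cell, but the study's text ties 10 µM to the 8-cell and 5 µM to the 32-cell embryos, so stage and dose cannot be told apart in any comparison of the stages. The 4 groups were 30 cells of 8-cell control embryos, 24 cells of 8-cell mimic embryos (both embryonic day 2.5), 39 cells of 32-cell control embryos and 39 cells of 32-cell mimic embryos (both embryonic day 3.5). Every cell had thus been exposed to a synthetic small RNA, the control cells included. Each group drew on 3 to 5 embryos, but no label ties a cell to its embryo, so each group counted as 1 sample and no test between groups was made. Total counts per cell ranged from 544866 to 3461022, and no cells were identical. Levels are counts per 1000000 (CPM) without mitochondrial genes, pooled over the cells of a group, with exact Poisson 95% intervals. Libraries carried no molecular identifiers, so all intervals, and the limit of 3 counts placed on a count of 0, reflect counting error alone and leave out differences between cells or embryos.

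Type I interferons act through the receptor chains IFNAR1 and IFNAR2 and the kinases JAK1 and TYK2, which activate transcription factors that switch on interferon-stimulated genes. One such gene encodes ISG15, a ubiquitin-like protein that is joined to target proteins by an E1 (UBA7), an E2 (UBE2L6) and an E3 (HERC5 in human, HERC6 in mouse) and removed by USP18. IRF1 and IRF7 are transcription factors of the response, while the IFITM proteins and BST2 (tetherin) act in membranes to block the entry or release of enveloped viruses. Pluripotent stem cells are known for a weak response to interferon and for steady expression of some of these restriction factors.

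The mature miR-381-3p sequence (RefSeq, GRCm38.p6, chromosome 12, 109726870 to 109726891, plus strand) is shown because its seed, bases 2 to 8 in capitals, defines the sites that were searched.
miR-381-3p: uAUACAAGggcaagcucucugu
An 8-base match to the seed region (CTTGTATA) and both 7-base matches (CTTGTAT and TTGTATA) were absent from the longest annotated 3′ UTR of all 9 genes, 1020 bases in Ube2l6 and at most 944 bases in the others. The 8-base site was present in 3.12% of 20741 genes with a 3′ UTR, and the 7-base sites in 11.3% and 15.5%. A 6-base match (TTGTAT, present in 38.2% of genes) was found once, at base 414 of the Irf1 3′ UTR, and is printed with its context, the match in capitals.
Irf1 site: tgcctctgagtTTGTATgtgtaggtcag
These matches describe the annotated sequence, and their absence says only that these letters are not in these windows. The shares of all genes were not matched for the length of the 3′ UTR, and a short one has less room for a match.

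Promoters are shown because interferon acts on these genes through short motifs next to the start site, and because genes with unlike motifs can be set beside their levels below. The RefSeq entries (GRCm38.p6) run from 250 bases before to 50 bases after the start of transcription, and capitals mark matches to the interferon-stimulated response element (ISRE), searched as GAAANNGAAA on both strands. The Ube2l6 promoter (chr2:84798578-84798877, plus strand) had no match. The Isg15 promoter (chr4:156200769-156201068, minus strand) had 3 overlapping matches, which began 78, 72 and 66 bases before the start. The Ifitm2 promoter (chr7:140955912-140956211, minus strand) had 1 match, 46 bases before the start. The Bst2 promoter (chr8:71537423-71537722, minus strand) had 2 overlapping matches, 130 and 124 bases before the start.
Ube2l6 promoter: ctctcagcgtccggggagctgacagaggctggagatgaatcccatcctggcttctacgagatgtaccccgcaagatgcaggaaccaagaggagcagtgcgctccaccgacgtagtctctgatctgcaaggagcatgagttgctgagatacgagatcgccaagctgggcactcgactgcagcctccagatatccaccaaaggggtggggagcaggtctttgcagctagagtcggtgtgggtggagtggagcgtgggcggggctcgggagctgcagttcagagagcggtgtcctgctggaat
Isg15 promoter: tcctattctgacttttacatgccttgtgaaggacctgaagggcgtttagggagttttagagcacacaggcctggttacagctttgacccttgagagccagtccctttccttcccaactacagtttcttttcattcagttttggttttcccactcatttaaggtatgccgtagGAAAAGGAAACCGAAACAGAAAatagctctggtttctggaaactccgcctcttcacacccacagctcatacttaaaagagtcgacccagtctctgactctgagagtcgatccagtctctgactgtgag
Ifitm2 promoter: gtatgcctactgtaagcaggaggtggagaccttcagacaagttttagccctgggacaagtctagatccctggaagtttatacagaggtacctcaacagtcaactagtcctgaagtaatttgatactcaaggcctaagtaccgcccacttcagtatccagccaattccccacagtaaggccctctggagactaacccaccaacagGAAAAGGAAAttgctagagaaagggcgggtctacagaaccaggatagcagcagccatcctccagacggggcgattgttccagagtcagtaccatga
Bst2 promoter: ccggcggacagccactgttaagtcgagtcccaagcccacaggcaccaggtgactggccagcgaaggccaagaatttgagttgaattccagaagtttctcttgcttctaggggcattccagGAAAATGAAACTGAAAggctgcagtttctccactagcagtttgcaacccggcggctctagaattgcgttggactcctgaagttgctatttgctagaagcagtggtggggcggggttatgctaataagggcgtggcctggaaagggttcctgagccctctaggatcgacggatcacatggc
Of the 8 genes with an entry, 4 held the ISRE motif (Isg15, Ifitm2, Ifitm3 and Bst2), against 3.44% of 32851 promoters. The gamma-activated site, TTCNNNGAA on both strands, was found in 3 of them (Ifitm3, Bst2 and Irf1) and in 8.30% of all promoters. Ube2l6, Ifitm1 and Irf7 had neither motif in these windows.

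Ube2l6, the E2 enzyme of ISG15 conjugation (ENSMUSG00000027078, mm10 chromosome 2, 84798828 to 84810335, plus strand), was sparse at the 8-cell stage and present in most 32-cell control cells. Cell numbers in the titles form runs of consecutive numbers, here counted in their order within a group, and no label says what a run is. In 8-cell control cells the lowest and the median cell were at 0 and the highest at 146.7 CPM, with counts in 7 of 30 cells (23.3%, exact binomial 95% interval 9.93 to 42.3). In 8-cell mimic cells the median was 0 and the highest cell 34.4 CPM, with counts in 2 of 24 cells (8.33%, interval 1.03 to 27). The ranges overlapped at 0. Pooled Ube2l6 was 10.3 CPM (95% interval 9.30 to 11.4) in control and 2.26 CPM (1.77 to 2.86) in mimic cells at this stage, a ratio of 4.56 (3.52 to 5.97). A single control cell held 36.4% of the Ube2l6 counts of its group, and run 1 of the 8-cell control cells (28 cells) stood at 7.11 CPM against 48.8 CPM in run 2 (2 cells). Without run 2 the log2 change was -1.31 in place of -1.79. By Xist and Y-linked counts, Ube2l6 was at 15.5 CPM in control and 0 in mimic cells with Xist alone (16 and 3 cells), at 0.827 CPM and 0 in cells with Y-linked counts above Xist (7 and 8 cells), and at 10.99 and 4.47 CPM in cells with both and Xist higher (7 and 11 cells).

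In 32-cell control cells Ube2l6 ranged from 0 to 327 CPM with a median of 6.37, and 61.5% of cells had counts (interval 44.6 to 76.6). In 32-cell mimic cells it ranged from 0 to 106.3 CPM with a median of 0, and 17.9% of cells had counts (interval 7.54 to 33.5). The groups overlapped, since 15 control cells were also at 0 and the 7 mimic cells with counts lay within the control range. Pooled levels were 46.2 CPM (44.5 to 48.0) and 9.86 CPM (9.03 to 10.7), a log2 change of -2.12 on the log2(CPM + 1) scale, or 4.69 times lower (4.27 to 5.16) in mimic cells. Shares were the same after each cell was thinned to 500000 counts, with 24 and 7 cells still positive. Of the 31-base stretches of the longest Ube2l6 transcript 20.5% also occur in transcripts of other genes, so a part of its counts could have been assigned between them.

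The Ube2l6 level was uneven within the mimic group. In run 1 of the 32-cell mimic cells, 0 of 18 cells had counts, which by the limit of 3 counts allows a share of cells with counts of up to 16.7%. The exact binomial interval, used for the other shares, reaches 18.5%. In run 2, 3 of 12 cells had counts, at 13.0, 14.1 and 46.4 CPM. In run 3, 4 of 9 cells had counts, at 29.1, 32.4, 42.2 and 106.3 CPM. The pooled Ube2l6 level was thus 0 in run 1, 5.54 CPM in run 2 and 27.1 CPM in run 3. The runs of 32-cell control cells were closer together, at 41.6 CPM (15 of 24 cells) and 53.1 CPM (9 of 15 cells). Without mimic run 1 the log2 change was -1.48, and without mimic run 3 it was -3.74. Median depth was lowest in mimic run 1 and highest in run 3, and its part in the difference between runs was not tested.

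**Figure D1:**
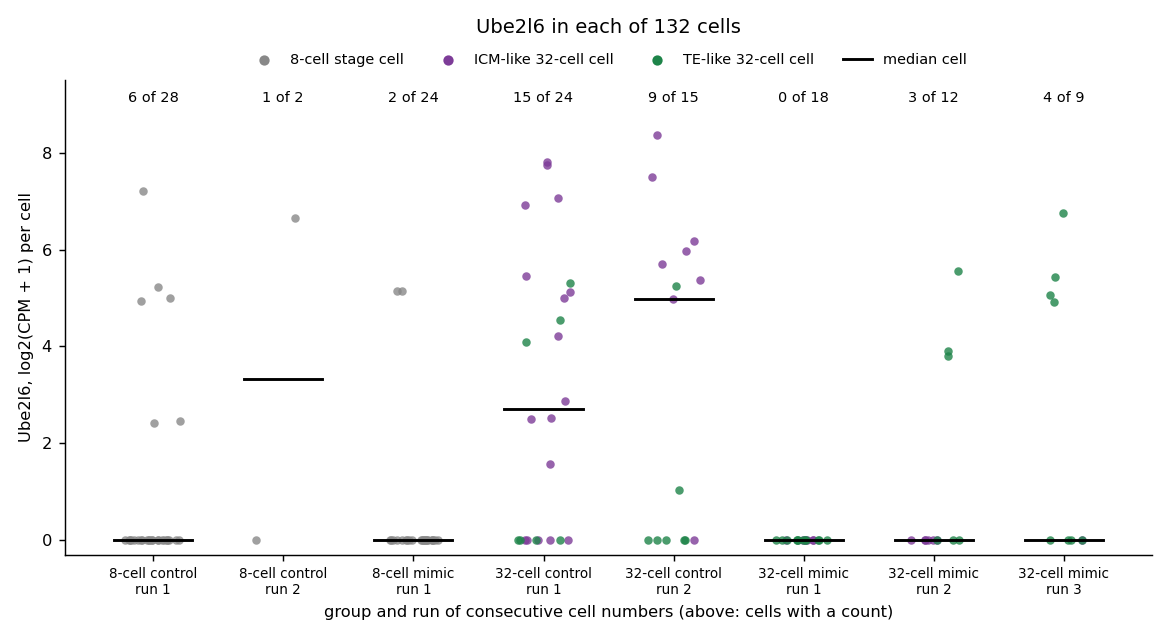
Ube2l6 in each cell as log2(CPM + 1), by group and run of consecutive cell numbers; points are cells coloured by stage or lineage class, black lines are medians, and the numbers above give the cells with a count. All 18 cells of 32-cell mimic run 1 lie at 0, while 3 of 12 and 4 of 9 cells of the other mimic runs do not.

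Lineage was examined next, since embryos at this stage hold cells of the inner cell mass (ICM) and of the trophectoderm (TE). Clustering on genes that excluded the interferon genes and all lineage markers gave 2 clusters of 32-cell cells, of 38 and 40. All 9 ICM markers were higher in the former, called ICM-like, and all 9 TE markers in the latter, called TE-like. These marker levels pooled both treatments, and the order of each marker within mimic cells alone was not examined. In control embryos Ube2l6 was mostly an ICM-like transcript: 75.2 CPM with counts in 19 of 25 ICM-like cells, against 7.44 CPM and 5 of 14 TE-like cells, a ratio of 10.1 (counting interval 8.69 to 11.8). Both control runs showed this order, with 63.99 and 9.45 CPM in run 1, and 93.2 and 4.73 CPM in run 2. In mimic embryos Ube2l6 was at 0 in all 13 ICM-like cells. With a limit of 3 counts this is at least 421 times lower than in ICM-like control cells, by counting error alone. The exact binomial interval for 0 of 13 cells reaches 24.7% of cells with counts, so the bound leaves out how far cells differ. All 7 mimic cells with Ube2l6 were TE-like, at 14.4 CPM over 26 cells, 1.94 times (1.63 to 2.31) the level of TE-like control cells. The share of TE-like cells with counts was lower in mimic (26.9%) than in control cells (35.7%), and a single mimic cell held 44.8% of the TE-like counts. The TE-like mimic level was 0, 10.9 and 31.5 CPM in runs 1, 2 and 3. Without run 3 it was 4.17 CPM, 1.79 times lower (1.39 to 2.31) than in TE-like control cells, so the direction in TE-like cells rests on run 3. No difference between the classes was tested.

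The classes rest on few cells, and the mimic ICM-like cells were 6, 6 and 1 in the 3 runs. When cells were instead placed by a marker score (mean z-scored ICM markers less TE markers), 5 TE-like mimic cells became ICM-like, 1 moved the other way and 0 control cells moved. Ube2l6 was then found in 2 of 17 ICM-like mimic cells, at 4.81 CPM, and in 5 of 22 TE-like mimic cells, at 13.6 CPM. Treatment and sex-linked transcripts cannot be told apart at this stage: Y-linked counts exceeded Xist in all 39 control cells, and all 39 mimic cells had Xist, with at most 1 Y-linked count each. The runs likewise each hold a single treatment and stage, so a batch that they may mark cannot be told apart from either.

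**Figure D2:**
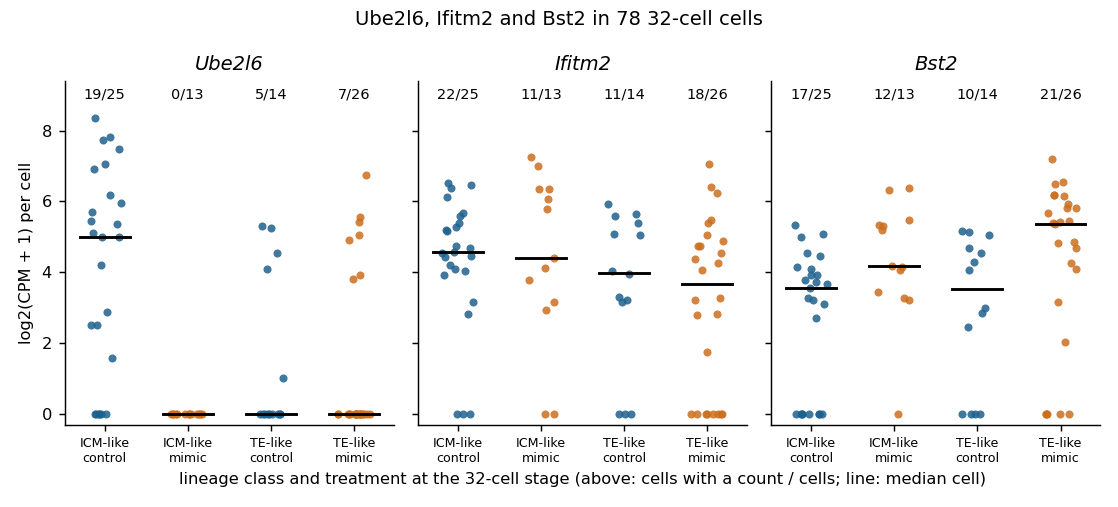
Ube2l6, Ifitm2 and Bst2 in 78 32-cell cells as log2(CPM + 1), by lineage class and treatment; points are cells, black lines medians, and the numbers above give cells with a count over all cells. Ube2l6 lies at 0 in all 13 ICM-like mimic cells and above 0 in 19 of 25 ICM-like control cells, whereas Ifitm2 and Bst2 are present in each class and treatment.

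Isg15, the modifier that UBE2L6 conjugates (ENSMUSG00000035692, chromosome 4), was all but missing. Of 30 8-cell control cells 2 had counts, at 3.95 and 5.00 CPM, and of 24 8-cell mimic cells 1 had counts, at 8.72 CPM. The pooled Isg15 level was 0.327 CPM (0.169 to 0.571) in control and 0.324 CPM (0.155 to 0.595) in mimic cells of that stage. At the 32-cell stage 0 of 78 cells had Isg15 counts, which limits its level to 0.0527 CPM in the control group and 0.0563 CPM in the mimic group. None of the 40 cells with Ube2l6 had Isg15 counts. Usp18, the protease that takes ISG15 off its targets (chromosome 6), had 3 counts in a single 8-cell mimic cell, number 65, and none in any other cell.

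The other conjugation genes were present at unlike levels. Ube2l3, an E2 for ubiquitin and the close relative of Ube2l6, was at 173.4 CPM in 32-cell control and 124.4 CPM in 32-cell mimic cells and had counts in all 39 cells of each. Trim25, a ubiquitin E3 that is also reported to ligate ISG15, was at 93.0 and 73.2 CPM. Neither passed a 2-fold change between the treatments at either stage. Arih1, a ubiquitin ligase also linked to ISG15, was at 102.8 and 60.3 CPM. It did not pass 2-fold either. Uba7, the E1 of the pathway, and Herc6, its E3, stayed under 20 CPM in every group.

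Irf7, the transcription factor that amplifies interferon production (ENSMUSG00000025498, chromosome 7, 141262706 to 141266481, minus strand), was found in few cells, most of them mimic cells. At the 8-cell stage 1 of 30 control cells had counts, at 2.90 CPM, and 5 of 24 mimic cells, at 1.004, 24.0, 40.6, 124.2 and 191.8 CPM. The median was 0 in both groups, and the ranges overlapped. Pooled Irf7 was 0.0817 CPM (0.0168 to 0.239) in control and 12.9 CPM (11.7 to 14.2) in mimic cells, a ratio of 158.1 that rests on 3 control counts (interval 53.7 to 770). A single mimic cell gave 55.1% of the counts. Of the 399 mimic counts 370 came from 4 of the 8 cells whose Y-linked counts exceeded Xist (45.3 CPM, against 0 in such control cells). In cells with both and Xist higher Irf7 stood at 0.428 CPM with the control and 1.85 CPM with the mimic, and cells with Xist alone had none in either treatment. Whether those 4 cells share an embryo is not given. At the 32-cell stage no control cell and 2 mimic cells had Irf7, at 42.3 and 43.2 CPM, both in run 2. Irf7 overlaps Phrf1 on the opposite strand, and Smart-seq2 does not record strand, so reads of the overlap cannot be told apart. Phrf1 was lower in mimic than in control cells at both stages, at 175.8 and 153.2 CPM in 8-cell and 108.7 and 73.6 CPM in 32-cell cells.

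Irf1, an activator of interferon genes (chromosome 11), had counts in a single cell of the series. This 32-cell mimic cell of run 3 had Irf1 at 51.1 CPM and also had Ube2l6 at 32.4 CPM. In 8-cell mimic cells the cell with the highest Irf7, number 85, was the cell with Isg15 counts. These are single cells, and nothing was tested on them. Irf1 overlaps Gm17334 and Usp18 overlaps Gm44148 on the opposite strand, so their few counts are uncertain.

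The IFITM genes, which lie close together on chromosome 7, were compared next. Ifitm2 (ENSMUSG00000060591) was the most widely detected. In 8-cell control cells it ranged from 0 to 106.2 CPM with a median of 17.1, and 24 of 30 cells had counts (80%, interval 61.4 to 92.3). In 8-cell mimic cells it ranged from 0 to 35.7 CPM with a median of 0, and 7 of 24 cells had counts (29.2%, interval 12.6 to 51.1). The cell ranges overlapped. Pooled Ifitm2 was 33.0 CPM (31.2 to 35.0) in control and 3.40 CPM (2.78 to 4.11) in mimic cells, 9.73 times lower (7.97 to 11.99) in mimic cells. In cells with Xist and no Y-linked count the pooled levels were 20.5 and 3.42 CPM (16 and 3 cells), and in cells with Y-linked counts above Xist 64.5 and 3.80 CPM (7 and 8 cells). In cells with both, and Xist higher, they were 17.98 and 3.83 CPM (7 and 11 cells).

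At the 32-cell stage the Ifitm2 levels of the treatments lay close together when the runs of each were pooled. It ranged from 0 to 91.2 CPM (median 22.5) in control and from 0 to 151.3 CPM (median 16.3) in mimic cells, with counts in 33 and 29 of 39 cells. The pooled levels were 28.4 CPM (27 to 29.8) and 33.6 CPM (32.0 to 35.2), a ratio of 1.18 (1.11 to 1.27). Runs differed more than treatments: 13.7 and 50.2 CPM in the control runs, and 10.3, 67.7 and 26.4 CPM in the mimic runs. Of 31-base stretches of the longest Ifitm2 transcript, 55.5% also occurred in transcripts of other genes, 38.1% in the overlapping same-strand gene Gm45717, which is no row of the table, so its counts are uncertain.

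Ifitm1, a relative on the plus strand (ENSMUSG00000025491), was limited to the 8-cell stage. Its 8-cell control cells ranged from 0 to 44.0 CPM with a median of 0, with counts in 11 of 30 (36.7%, interval 19.9 to 56.1). In 8-cell mimic cells 3 of 24 had counts, at 9.91, 15.99 and 36.0 CPM, and the ranges overlapped. Pooled Ifitm1 was 11.3 CPM (10.2 to 12.4) in control and 2.33 CPM (1.82 to 2.93) in mimic cells, a ratio of 4.85 (3.77 to 6.32). All 11 control cells belonged to run 1, the larger of the 8-cell control runs, and against the 2 cells of run 2 alone, which had none, the log2 change turned from negative to 1.74. By the same Xist and Y-linked classes, Ifitm1 was at 7.37 CPM in control and 0 in mimic cells with Xist alone, at 22.1 CPM and 0 in cells with Y-linked counts above Xist, and at 5.14 and 4.60 CPM in cells with both and Xist higher. At the 32-cell stage 0 of 78 cells had Ifitm1, which with a limit of 3 counts is at least 214 times lower than at the 8-cell stage in control and 41.3 times in mimic cells. These bounds cover counting error alone. The exact binomial interval for 0 of 39 cells in each treatment reaches 9.03%. Ifitm3 (ENSMUSG00000025492) had counts in 3 of 30 8-cell control cells, at 5.52, 10.6 and 19.6 CPM, and in no other cell.

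Bst2, which tethers budding viruses to the cell surface (ENSMUSG00000046718, chromosome 8, 71534255 to 71537456, minus strand), was present at both stages. At the 8-cell stage it ranged from 0 to 60.1 CPM (median 11.3) in control and from 0 to 54.0 CPM (median 18.8) in mimic cells, with counts in 20 of 30 and 17 of 24 cells. The ranges nearly coincided. Pooled Bst2 was 13.9 CPM (12.7 to 15.1) and 22.4 CPM (20.8 to 24.2), a ratio of 1.61 (1.44 to 1.81). The control runs stood far apart, at 10.3 CPM in run 1 (28 cells) and 57.2 CPM in run 2 (2 cells). Against run 1 alone the mimic level passed the 2-fold limit as higher, and against run 2 alone as lower. Bst2 was at 18.1 and 29.1 CPM in cells with Xist alone, 3.68 and 16.7 CPM in cells with Y-linked counts above Xist, and 18.4 and 27.99 CPM in cells with both and Xist higher.

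In 32-cell cells Bst2 ranged from 0 to 39.1 CPM (median 10.9) in control and from 0 to 146.6 CPM (median 35.9) in mimic cells, with counts in 27 and 33 of 39 cells. The median mimic cell lay near the top of the control range. Pooled Bst2 was 13.7 CPM (12.7 to 14.7) in control and 34.1 CPM (32.6 to 35.7) in mimic cells, 2.497 times higher (2.29 to 2.72) in mimic cells. Mimic run 1, which had no Ube2l6, had the highest Bst2, at 56.3 CPM with counts in all 18 cells. Mimic run 2 had 7.28 CPM and mimic run 3 had 34.8 CPM, while the control runs had 17.2 and 8.44 CPM. Without mimic run 1 the log2 change of Bst2 was 0.55 in place of 1.26, and the 2-fold limit was no longer passed. Without control run 2, with control run 1 alone at 17.2 CPM, the limit was not passed either. By lineage class the Bst2 level in mimic cells was 2.61 times (2.27 to 3.00) that in control cells among ICM-like and 2.14 times (1.91 to 2.39) among TE-like cells. Without mimic run 1 these ratios were 1.63 (1.36 to 1.94) and 1.27 (1.11 to 1.45). None of its 31-base stretches occurred in another gene's transcript.

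**Figure D3:**
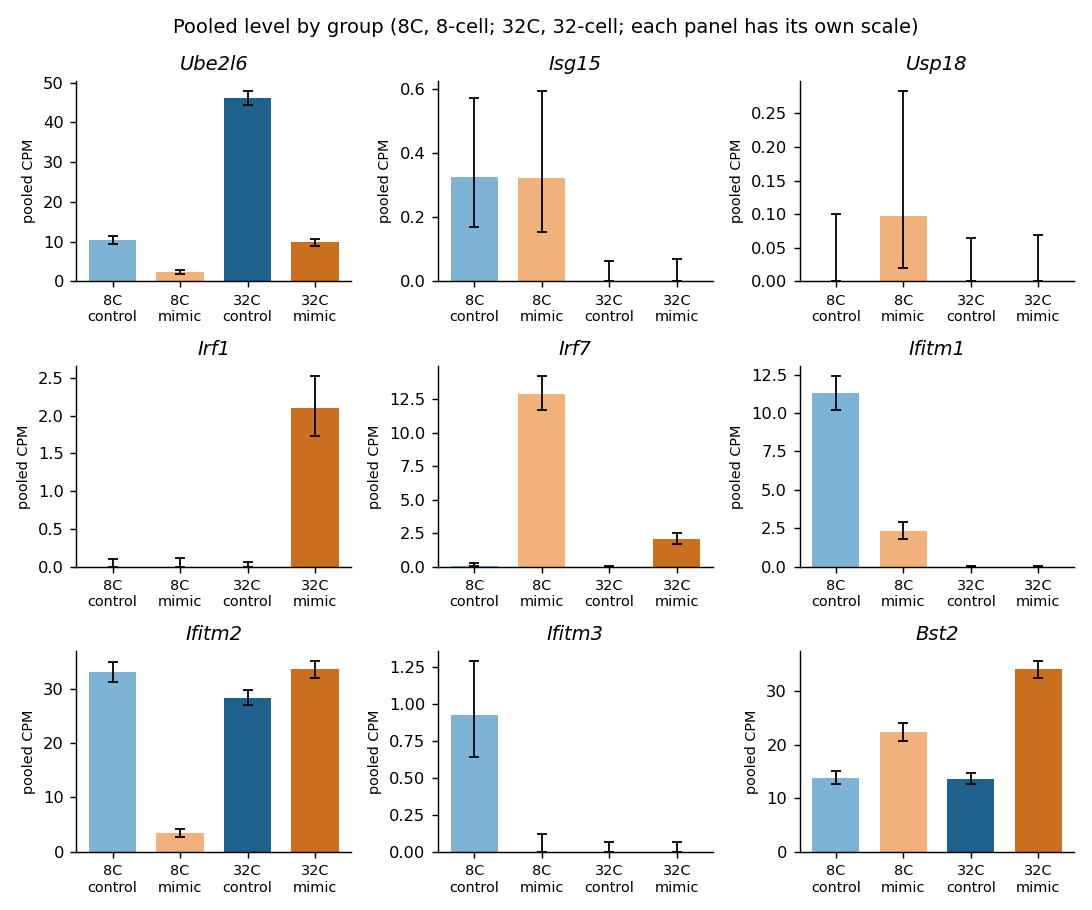
Pooled CPM of the 9 genes in the 4 groups (bars), with exact Poisson 95% intervals (error bars) that cover counting error only; each panel has its own scale from 0. Ube2l6 is highest in 32-cell control cells (46.2 CPM), Ifitm2 lowest in 8-cell mimic cells (3.40 CPM) and Bst2 highest in 32-cell mimic cells (34.1 CPM).

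**Figure D4:**
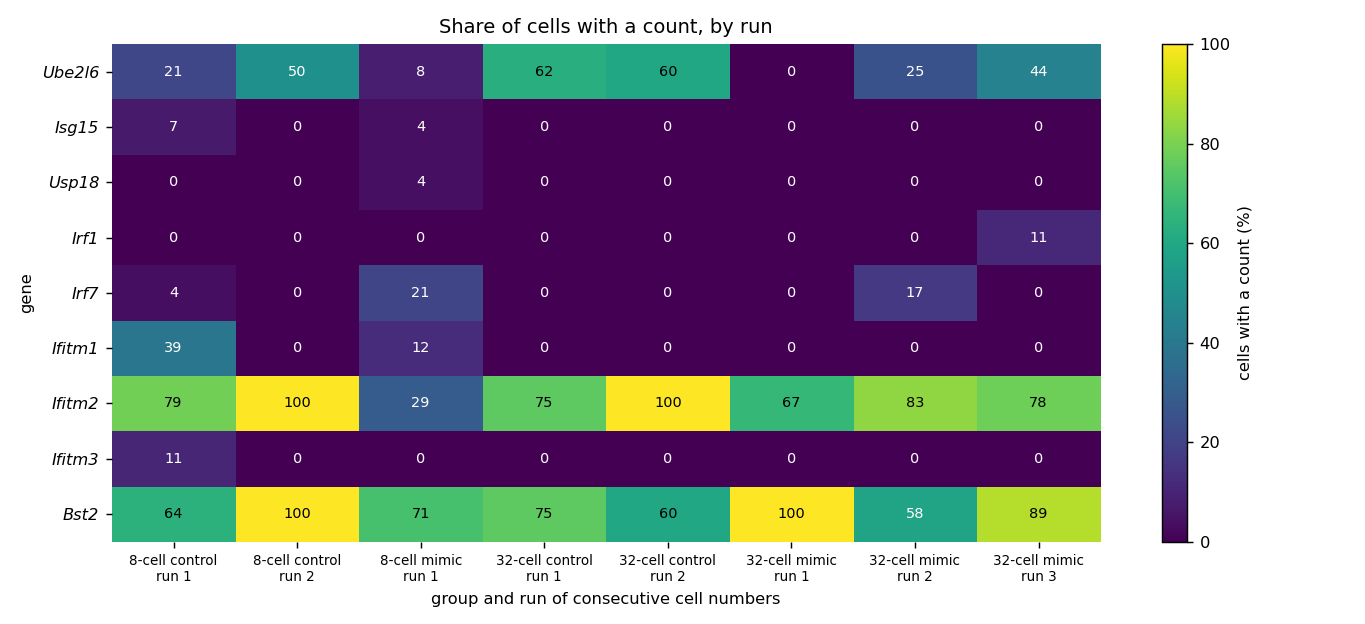
Share of cells with a count (percent, colour and printed value) for each of the 9 genes in each run of consecutive cell numbers. In 32-cell mimic run 1 Ube2l6 is at 0% and Bst2 at 100%, and Ifitm1 and Ifitm3 are at 0% in every 32-cell run.

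Levels were also put in order per kilobase of the longest transcript, since CPM of genes of unlike length cannot be compared. In 8-cell control cells the order was Ifitm2 (50.5 CPM per kb), Bst2 (17.5), Ifitm1 (12.8) and Ube2l6 (6.61). In 8-cell mimic cells Bst2 came first (28.3), followed by Irf7 (5.77), Ifitm2 (5.19), Ifitm1 (2.64) and Ube2l6 (1.45). In 32-cell control cells the order was Ifitm2 (43.3), Ube2l6 (29.6) and Bst2 (17.2), and in 32-cell mimic cells it was Ifitm2 (51.3), Bst2 (43.1) and Ube2l6 (6.32). The order was not the same in every run. In run 1 of the 8-cell control cells, which holds 28 of the 30 cells, Ifitm1 (13.9) stood above Bst2 (13.0). In run 2, with 2 cells, Bst2 (72.3) came before Ifitm2 (38.8) and Ube2l6 (31.3), and Ifitm1 was at 0. In run 1 of the 32-cell control cells Ube2l6 (26.7) came before Bst2 (21.7) and Ifitm2 (20.9). In the 32-cell mimic cells Bst2 stood above Ifitm2 in run 1 (71.1 and 15.7) and run 3 (43.9 and 40.4), and Ifitm2 above Bst2 in run 2 alone (103.3 and 9.20). In the whole groups, the cell ranges of all neighbours in the order overlapped at 0. In 32-cell mimic run 1 the lowest cell had Bst2 at 8.35 CPM, within the range of Ifitm2 there (0 to 43.3 CPM), both in CPM and not per kilobase.

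Of the 9 genes, 2 or 3 reached 20 CPM in either group of a comparison, the level needed for a call of 2-fold change on the log2(CPM + 1) scale. At the 32-cell stage 3 did, and of these Ube2l6 was lower in mimic cells, for which it was chosen, Bst2 was higher and Ifitm2 was neither. Over all 7307 genes that reached it, 5.36% were lower and 6.87% higher in mimic cells. With 32-cell control run 2 left out, Ifitm2 passed as higher in place of Bst2, which then did not pass. At the 8-cell stage Ifitm2 was lower, Bst2 did not pass, and none was higher, where 6.09% and 6.96% of 6570 genes were lower and higher. Without control run 2 Bst2 passed as higher there, and against the 2 cells of run 2 alone it passed as lower. Between the stages, Ube2l6 was higher at the 32-cell stage in control cells (4.48 times, interval 4.02 to 5.00), where 30% of 7469 genes were higher and 20.1% lower. It reached 20 CPM there through the 32-cell control group, which the choice of Ube2l6 favoured, and against the 2 cells of 8-cell control run 2 alone its log2 change was -0.0761 in place of 2.06. Ifitm2 was higher at the 32-cell stage in mimic cells (9.89 times, interval 8.12 to 12.1), where 29.1% of 7594 genes were higher and 18.8% lower. Without 32-cell mimic run 2 its level was 17.4 CPM and its log2 change 2.06 in place of 2.98, so neither group reached 20 CPM and the call was lost. Bst2 then passed, with a log2 change of 1.03. The stages also differ in dose, and these comparisons share groups and are set side by side only. With 2 or 3 genes counted in each, no share of the genes can be read against the background.

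The rest of the interferon pathway was listed by role, and 88 of 91 listed genes were rows of the table. Of these, 30 had no count in any cell, and 21 reached 20 CPM in some group. Among 12 interferon genes only Ifna2, Ifng and Ifnk had any counts, and none reached 20 CPM. Ifng, the type II interferon, had 379 counts in 2 8-cell mimic cells, 2 counts in an 8-cell control cell and none at the 32-cell stage. Of these counts 377 came from mimic cell 65, the cell with Usp18, where Ifng stood at 217 CPM. Of 35 interferon-induced effectors 4 reached 20 CPM in some group, but none did at the 32-cell stage. One of the 4 was Ifi35, at 67.6 CPM in 8-cell control and 73.1 CPM in 8-cell mimic cells. Another 13 had no count, among them Ifit1, Ifit2, Ifit3, Rsad2, Cxcl10 and Rtp4, which are standard readouts of an interferon response. A count of 0 limits their level to at most 0.0971 CPM in every group. The share of all genes without a count is not given here, so these numbers of genes cannot be set against it. Mx1, Mx2 and Oas1b were not analysed here.

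Of the 88 genes 12 reached 20 CPM at the 32-cell stage: Trim25, Ube2l3, Arih1, Ifnar1, Ifngr2, Jak1, Jak2, Tyk2, Stat3, Irf3, Mavs and Tbk1. Their median log2 change was -0.47, where that of all genes was 0.01, and 2 were lower and 1 higher in mimic cells, where 5.36% and 6.87% of all genes were. Jak2, a kinase of the type II receptor, was at 23.1 CPM in control cells and 9.07 CPM with the mimic, and Mavs, the adaptor of RNA sensors, at 28.6 and 13.3 CPM. Both calls were lost with a pseudocount of 5 CPM (log2 changes of -0.998 and -0.88) and without control run 2 (-0.69 and -0.98). Jak2 also lost its call without mimic run 1 (-0.94), and Mavs with the mean of the cells' CPM (-0.44), with thinned cells (-0.48) and without mimic run 3 (-0.67). Ifngr2, a chain of the type II receptor, stood at 6.19 CPM in control cells but at 34.3 CPM with the mimic, and was higher in each mimic run (26.98 to 44.7 CPM) than in each control run (4.91 and 8.09 CPM). At the 8-cell stage 18 of the genes reached 20 CPM, with a median of -0.18 against 0.03 for all genes, and 3 were lower and 2 higher in mimic cells, where 6.09% and 6.96% of all genes were.

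**Figure D5:**
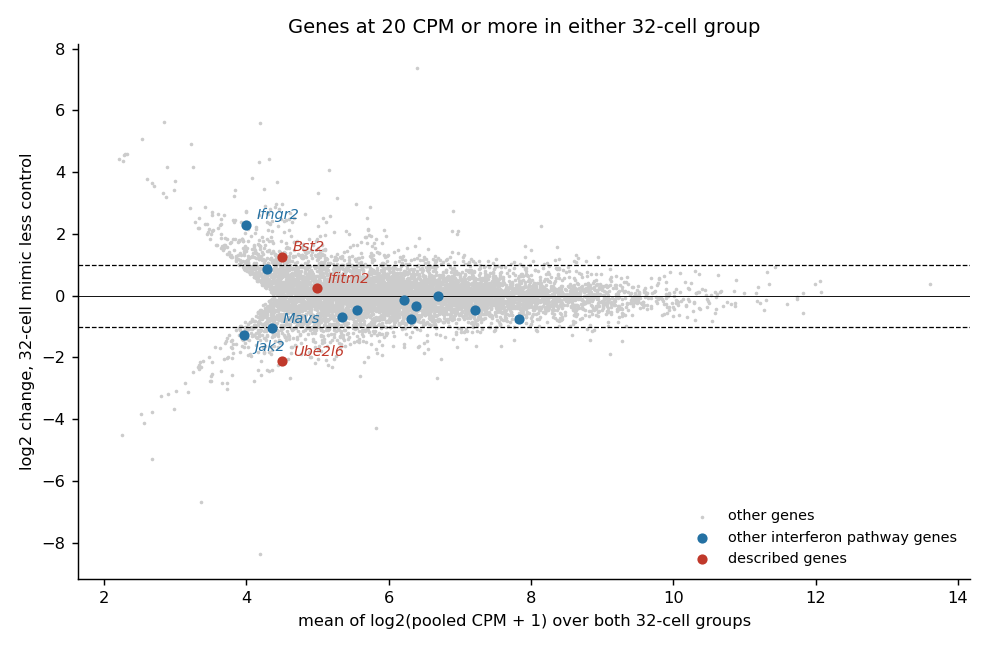
Log2 change from 32-cell control to 32-cell mimic cells against the mean of log2(pooled CPM + 1), for the 7307 genes that reached 20 CPM (grey), with 3 of the 9 genes in red and 12 other pathway genes in blue. Dashed lines mark 2-fold changes, passed by Ube2l6, Bst2, Jak2, Mavs and Ifngr2.

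Markers of other cells that could carry interferon-linked transcripts were examined as well. The leukocyte markers Ptprc, Lyz2 and Tyrobp had no count in any group, and the summed level of 7 leukocyte markers was 21.4 CPM in 8-cell control, 12.1 in 8-cell mimic, 7.56 in 32-cell control and 8.36 CPM in 32-cell mimic cells. Most of it was Coro1a at the 8-cell stage, at 20.3 CPM in control (14 of 30 cells) and 7.47 CPM in mimic cells (6 of 24), and Laptm5 at the 32-cell stage, at 6.56 and 6.18 CPM. The 8 cumulus cell markers summed to 2.37, 4.66, 17.3 and 3.46 CPM, and 4 of them (Ptx3, Cyp11a1, Fshr and Inhba) had no count in any group. Nearly all of the cumulus sum was Star, a cholesterol transporter of steroid synthesis, which was lower in 32-cell mimic cells, as Ube2l6 was, at 17.3 CPM in control (15 of 39 cells) and 2.82 CPM in mimic cells (4 of 39). The part of these markers in the results was not tested.

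Ube2l6 was then set beside its neighbours on chromosome 2, the 5 nearest protein-coding genes on each side. Of these 10, Timm10, Clp1, Zdhhc5 and Slc43a3 passed 20 CPM in some group, and the other 6 (Ypel4, Gm19426, Serping1, Smtnl1, Slc43a1 and Rtn4rl2) stayed under it. Smtnl1, which ends 841 bases from Ube2l6, had no count in 32-cell control cells and 0.920 CPM in mimic cells. Timm10, a mitochondrial import factor, was at 91.7 and 66.8 CPM in 32-cell control and mimic cells, and Clp1, an RNA kinase, at 80.1 and 58.5 CPM. Slc43a3, a purine transporter, was lower in 32-cell mimic cells (688 and 309 CPM) and Zdhhc5, a palmitoyl transferase, was higher (13.7 and 32.0 CPM). By run, Slc43a3 was at 615.4 and 796.8 CPM in control cells and at 278.1, 295.4 and 363.1 CPM in mimic cells, and its log2 change was -0.99 without control run 2. Zdhhc5 was at 16.8 and 9.06 CPM in the control runs and at 52.5, 32.8 and 4.796 CPM in the mimic runs, so mimic run 3 lay below both control runs. Its log2 change was 1.16, but 0.47 without mimic run 1 and 0.89 without control run 2, where the 2-fold limit was not passed.

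The genes whose log2(CPM + 1) followed Ube2l6 most closely over all cells, of 8080 genes at 20 CPM or more in some group, were St6galnac4 (Pearson r = 0.44), Maged1 (0.40), Calr4 (0.39), Cdkn1b (0.39), Ptprn (0.39), Sdcbp2 (0.38), Zfp57 (0.38) and Nudt12 (0.37). All 8 had their highest pooled level in 32-cell control cells, as Ube2l6 had. The choice favoured this, since Ube2l6 was picked for its loss in 32-cell mimic cells and these genes for following it. Their lower levels in 32-cell mimic cells are therefore no separate result. Within the 39 cells of that group r was 0.05 for St6galnac4 and between 0.25 and 0.49 for the others. Zfp57, a zinc finger protein that protects imprinted methylation, was at 154.3 CPM in 32-cell control and 65.2 CPM in 32-cell mimic cells. Cdkn1b, the cell cycle inhibitor p27, was at 29.8 and 10.8 CPM. These cells share stage, treatment and library handling, so the correlations only describe the table. Ifitm2, with r of 0.19, came 831st in the same order and Bst2, with r of -0.08, came 6391st, and the remaining 6 genes were too low to be placed.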

How the data were processed

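Single cells were lysed and amplified by Smart-seq2, which reads polyadenylated RNA along the transcript without strand or molecular identifiers. The authors aligned reads with STAR (version 2.5.1b) and estimated counts with RSEM (version 1.3.0) on mm10, after FastQC, and deposited expected counts per gene and cell, which are not normalised and are whole numbers. Every column was mapped to a sample by its title. The filter of at least 3000 genes and under 10% mitochondrial counts removed 0 cells.

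Counts of 13 mitochondrial genes were left out. Counts were summed per group and divided by their total to give CPM, with exact Poisson intervals, and shares of cells were given exact binomial (Clopper-Pearson) intervals. Ratios have exact conditional binomial intervals. A gene at 20 CPM or more in either group was called at a difference of 1 or more in log2(CPM + 1). No label gives replicates, so no test was run and no p-value computed. A count of 0 was limited at 3 counts. Clustering used Seurat (version 5.3.0, in R version 4.3.3) on alternate genes without the lists, at a resolution of 0.8. Python (version 3.11.15) with scipy (version 1.17.1) did the rest, and the pooling and intervals were tested on simulated data. Sequences were from RefSeq (GRCm38.p6), and positions and 3′ UTRs from GENCODE M21, which has the same build but is not the annotation used for counting.

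The genes and lists were chosen with earlier results of these data known. Named genes were the 9, pathway genes past 2-fold at the 32-cell stage, the 10 neighbours and the 8 closest correlates of Ube2l6; others are all members of a list, or were named after their values were seen. A few pathway genes are not reported here and were left out of the counts of pathway genes. Alternatives covered the total, pooling, depth, scaling, pseudocount, filter, runs, highest cells, Xist classes and marker score. The comparisons within lineage classes, with and without each run, and the neighbours without each run were added after seeing the data.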

Additional observations from a re-analysis of the deposited data

How the results depend on the processing

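The log2 change of Ube2l6 at the 32-cell stage (-2.12) stayed negative under every setting except in TE-like cells alone, where it was 0.87 (0.56 without control run 2, 0.97 without mimic run 2, 1.43 without control run 1, 1.53 without mimic run 1 and -0.71 without mimic run 3); in ICM-like cells alone it was -6.25 (-6.56 to -6.02 over the runs left out). It was -2.44 with the mean of the cells' CPM, -2.71 with cells thinned to 500000 counts, -1.78 with a pseudocount of 5 CPM, and -2.55 without the highest cell of each group. Leaving out each run in turn gave -3.74 to -1.48. With the marker score, Ube2l6 in ICM-like mimic cells was 4.81 CPM in place of 0.

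Counts past 2-fold moved with the filter and with the runs. With 5 CPM in place of 20, 3 of the 9 genes were lower and 1 higher in 8-cell mimic cells, where 10.8% and 11% of all genes were, and of the other pathway genes 4 were higher at the 8-cell stage and 4 at the 32-cell stage, where 11.5% of all genes were. Between stages, 1 of the 9 was then lower in control cells (22.5% of all genes), and 1 lower and 2 higher in mimic cells (20.2% and 31.8%). Of the other pathway genes higher in 8-cell mimic cells (2 in the report), 0 remained with the mean of the cells' CPM, thinning or a pseudocount of 5 CPM, and 1 with median-of-ratios scaling, where 5.24% to 7.01% of all genes were higher. The 2 lower at the 32-cell stage became 1 with the mean of the cells' CPM or thinning and 0 with a pseudocount of 5 CPM, where 4.05% to 5.09% of all genes were lower.

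Leaving out runs in turn gave, at the 8-cell stage, 1 to 3 of the 9 lower and 0 to 1 higher, and 2 to 5 other pathway genes lower and 1 to 6 higher, where 6.51% to 18.6% of all genes were lower and 7.06% to 24% higher. At the 32-cell stage it gave 0 to 1 of the 9 higher (7.45% to 9.37% of all genes) and 0 to 5 other pathway genes lower (5.32% to 8.21%). The gene called higher was Ifitm2 in place of Bst2 without control run 2. Between stages in control cells 0 to 1 of the 9 were lower (20.3% to 24%) and 0 to 1 higher (29.3% to 35.9%), and in mimic cells 1 was higher each time (28.8% to 30.1%), which was Bst2 in place of Ifitm2 without run 2. The log2 change of Ifitm1 at the 8-cell stage was 1.74 without control run 1. The stage change of Ube2l6 in control cells was -0.0761 without run 1 of the 8-cell control cells, which leaves 2 cells, and 2.54 without run 2. Median-of-ratios scaling shifted all genes by -0.12 in control and -0.20 in mimic cells between the stages. The cause of these changes was not tested. No paired analysis was possible because no test was made and replicate numbers name cells, not embryos. Depth limits a median cell to about 2.31 to 2.55 CPM at a count of 0, so genes at 0 were not detectable rather than absent.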

Other observations

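Between the stages, which also differ in dose, many pathway genes outside the 9 differed in level, as did many genes of the table as a whole. In control cells 20 of the 88 other pathway genes reached 20 CPM, of which 10 were lower and 5 higher at the 32-cell stage, where 20.1% and 30% of all genes were. In mimic cells 18 reached it, of which 7 were lower and 3 higher, where 18.8% and 29.1% of all genes were. The genes named here were picked after their values were seen. Socs3, a feedback inhibitor of JAK signalling, was at 129.7 CPM in 8-cell control and 83.5 CPM in 8-cell mimic cells, and at 6.40 CPM in 32-cell control cells and 0 in 32-cell mimic cells. Ifi35, an interferon-induced protein, was at 67.6 and 73.2 CPM at the 8-cell stage and at 3.48 and 14.4 CPM at the 32-cell stage, in control and mimic cells. Samhd1, an enzyme that breaks down deoxynucleotides, was at 53.6 and 56.1 CPM and then at 6.03 and 6.14 CPM. Stat3, which carries leukaemia inhibitory factor signals, was at 13.3 and 27.9 CPM at the 8-cell stage and at 294.6 and 174.1 CPM at the 32-cell stage. Tbk1, a kinase that activates IRF3, was at 11.4 and 8.44 CPM and then at 76.97 and 70.4 CPM, and Irf3 itself was at 4.16 and 9.87 CPM and then at 54.1 and 38.8 CPM.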
